A study of Mus musculus with 386 samples.

Results

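The lungs of young mice carried transcripts of heart muscle, and 10 cardiac muscle genes were followed through them by strain, cross and animal: Myl7, Myl4, Actc1, Tnni3, Tnnt2, Myh6, Ryr2, Pln, Sln and Nppa. The genes were chosen by name, and each was read from the transcript cluster that the array annotation pairs with that symbol alone. Of the 10 genes, 9 had such a cluster among the 18820 genes of the array, and each of the 9 had 1. The cluster that lists Myh6, the alpha myosin heavy chain of the mouse heart, also lists Myh7, so Myh6 has no value here. Of the 9 measured genes, 8 passed the filter on low signals, which kept genes with a lung mean at or above the 40th percentile and left 11292 genes for testing. Sln did not pass.

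Total RNA of lung, brain, kidney and liver was hybridised to Affymetrix Mouse Gene 1.1 ST arrays, which measure transcripts with many short probes per gene. The 98 lung arrays came from 98 animals, aged 23 days, of both sexes and 9 crosses, named with the dam first. There were 6 F1 crosses, CASTxPWK, PWKxCAST, CASTxWSB, WSBxCAST, PWKxWSB and WSBxPWK, and the inbred strains CAST, PWK and WSB, with 10 to 12 lung arrays each. No animal carried a transgene or received a treatment according to the labels, and the comparisons are between genotypes. The other tissues gave 85 brain, 102 kidney and 101 liver arrays, mostly of the same animals. Values are log2 signals, so a difference of 1 is a doubling. Signals of different genes come from different probes and are not set against each other. The lung label was borne out by Sftpc, the surfactant protein C gene of alveolar type II cells, which was above every array of the other tissues in 98 of 98 lungs. Whether the dissection took the roots of the pulmonary veins, the great vessels or pieces of the heart was not stated in the labels.

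Heart muscle contracts when calcium released through the ryanodine receptor lets myosin pull on actin filaments, under control of the troponin complex. Atrial and ventricular muscle share much of this apparatus but use different myosin light chains, and atrial muscle also secretes natriuretic peptide. In mice, muscle of cardiac type runs from the left atrium along the pulmonary veins into the lung, so that lung tissue with its veins contains such cells.

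Promoter sequences of 3 genes are shown first because these genes take different places in the results. Myl7 and Actc1 were high in every lung, and Nppa varied more between lungs than any other tested gene. Myl4, Tnni3 and Tnnt2 were also high in every lung, and Myl4 and Tnni3 held none of the 3 motifs searched below. The sequences are from RefSeq (GRCm38.p6), cover the 130 bases before the transcription start, read 5′ to 3′ on the strand of the gene, and have matches to 3 motifs in capitals.
Myl7, chr11:5898783-5898912, minus strand: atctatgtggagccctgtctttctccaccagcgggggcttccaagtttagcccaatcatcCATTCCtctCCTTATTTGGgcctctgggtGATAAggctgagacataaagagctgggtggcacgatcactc
Actc1, chr2:114052876-114053005, minus strand: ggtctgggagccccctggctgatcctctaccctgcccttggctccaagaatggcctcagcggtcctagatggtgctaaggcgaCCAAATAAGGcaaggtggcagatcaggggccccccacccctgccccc
Nppa, chr4:148000592-148000721, plus strand: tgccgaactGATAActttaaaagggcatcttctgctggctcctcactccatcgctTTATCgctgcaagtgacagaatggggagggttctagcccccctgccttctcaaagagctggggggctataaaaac
The motifs were the CArG box, known as the binding sequence of serum response factor, GATAA, known for GATA factors, and CATTCC, known for TEAD factors, each searched on both strands of the 250 bases before the start. TTATC in the Nppa sequence is GATAA on the other strand. The matches in capitals do not overlap. A CArG box was present in Myl7, at position -61 from the start, and in Actc1, at position -47, and in none of the other genes with a promoter entry. Among all 32851 promoters tabulated, 1.5% held a CArG box. GATAA was present in Myl7, Pln, Tnnt2 and Nppa, and in 22.6% of all promoters. CATTCC was present in Myl7, Myh6 and Tnnt2, and in 12.6% of all promoters. Promoter entries existed for 9 of the 10 genes, and Sln had none. A match is a description of letters and not of binding.

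The contractile genes were above the other tissues in every lung, though only narrowly for Myl4 in its lowest lung. Myl7, the atrial regulatory light chain of myosin, lay at 8.93, 11.31 and 12.44 in lung (lowest, median and highest of 98 arrays), whereas its highest value in any other tissue was 6.30. Myl4, the atrial essential light chain, lay at 10.50, 12.58 and 12.95 in lung, against at most 10.21 elsewhere, reached in a brain array. Both atrial light chains therefore separated lung from the other tissues without overlap. Actc1, the cardiac form of actin, lay at 11.73, 12.88 and 13.31 in lung, with a highest value elsewhere of 8.51 in a kidney array. Tnni3, the cardiac inhibitory subunit of troponin, lay at 8.90, 10.92 and 12 in lung, with a highest value elsewhere of 7.69, also in kidney. Tnnt2, the troponin subunit that binds tropomyosin, lay at 9.46, 11.38 and 12.49 in lung, with at most 7.85 elsewhere. For each of these 5 genes 98 of 98 lungs were above all arrays of brain, kidney and liver. The kidney array with the highest Actc1 (WSBxWSB kidney replicate 7) had Tnni3 at 4.85, and the kidney array with the highest Tnni3 (PWKxPWK kidney replicate 5) had Actc1 at 6.39, so these were different arrays.

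The genes of calcium handling and the hormone gene overlapped with other tissues. Pln encodes phospholamban, which restrains the calcium pump of the sarcoplasmic reticulum. It lay at 6.26, 8.50 and 11.40 in lung and was above all other arrays, whose highest value was 7.54, in 87 of 98 lungs. Sln encodes sarcolipin, a small inhibitor of the same pump found in atrial and skeletal muscle. It lay at 4.38, 5.35 and 6.82 in lung, near the low end of the array's scale, and passed the highest value elsewhere (5.08) in 74 lungs. Ryr2, the calcium release channel of cardiac muscle, is also a neuronal gene. Its mean was 8.26 ± 0.63 in lung (SD, n = 98) and 10.05 ± 0.19 in brain (SD, n = 85), and no lung exceeded the highest brain array. Nppa encodes the precursor of atrial natriuretic peptide. It lay at 4.39, 6.89 and 12.71 in lung and was above the highest array of the other tissues (6.96) in 48 lungs and not in the other 50.

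**Figure D1:**
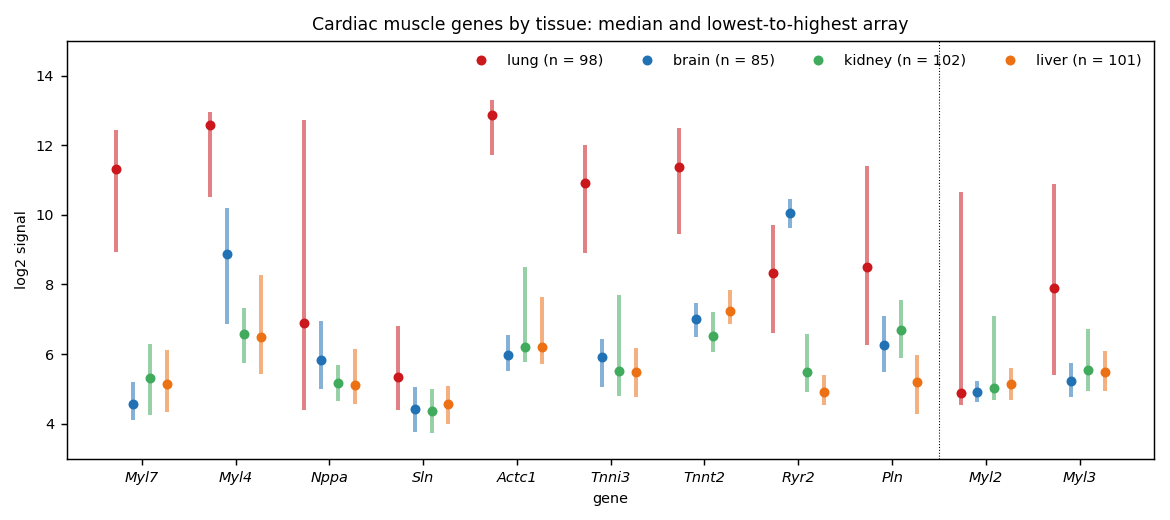
Log2 signal (vertical axis) of the 9 measured genes and of the light chain genes Myl2 and Myl3 (right of the dotted line) in 98 lung, 85 brain, 102 kidney and 101 liver arrays, with points for medians and bars from the lowest to the highest array. Lung bars of Myl7, Myl4, Actc1, Tnni3 and Tnnt2 clear all others, the lung bar of Nppa runs from 4.39 to 12.71, and Ryr2 is higher in brain.

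Averaged over crosses, lung exceeded the mean of brain, kidney and liver by 6.68 ± 0.03 for Actc1 (log2 difference ± SE, limma), 6.15 ± 0.04 for Myl7, 5.33 ± 0.03 for Myl4, 5.18 ± 0.04 for Tnni3 and 4.36 ± 0.03 for Tnnt2. The differences were 2.44 ± 0.05 for Pln, 2.03 ± 0.14 for Nppa and 1.43 ± 0.04 for Ryr2. All 8 tested genes were higher in lung at an adjusted p under 0.05, against 57.2% of all tested genes. The filter rests on the lung level itself, so both shares are of genes chosen to be present in lung. Against brain alone Ryr2 was lower in lung, by -1.79 ± 0.05 (adjusted p = 3.4e-126, limma). The tissues of an animal are not independent, and with the animal as a block all 8 genes were again higher in lung.

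Genes listed as ventricular differed in how many lungs exceeded the other tissues. Of the 10 listed, 7 passed the filter on the lung level and were tested, so genes low in lung were left out beforehand. Of these 7, 6 were higher and 1 lower in lung than in the mean of the other tissues, with a median of 1.06. Over all tested genes the median was 0.15 and 57.2% were higher in lung. Of 12 further atrial genes 9 passed the same filter, and of these 7 were higher and 1 lower, with a median of 1.42. Spread between lungs differed within both lists. With the means of cross and sex removed, the SD was 0.58 for Kcnj3 and 0.14 for Dkk3, both listed as atrial. It was 0.71 for Myl3 and 0.11 for Gja1, both listed as ventricular. How much of the lung signal of the listed genes came from heart muscle was not tested. Myl2, the ventricular regulatory light chain, which slow skeletal muscle also uses, did not pass the filter and is not among these 7. It had a lung median of 4.87, against 4.91 in brain, 5.02 in kidney and 5.13 in liver. It passed the highest array of the other tissues (7.08) in 9 of 98 lungs. Myl3, the ventricular essential light chain, also shared with slow skeletal muscle, did so in 86 lungs, with a median of 7.89. Myh7, the beta myosin heavy chain, did so in 98, with 8.0, 9.09 and 9.93 as lowest, median and highest, although near-identical myosin genes may share its probes. Of the 10 genes listed as ventricular, 1 was above all other tissues in every lung and 5 in none. Of the 12 further genes listed as atrial, 3 were above all other tissues in every lung and 4 in none. Among the atrial ones, Mybphl, a myosin binding protein of the atria, and Tbx5, a transcription factor of the atria and of lung mesenchyme, passed the other tissues in 98 of 98 lungs.

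The 9 lungs with high Myl2 differed in other markers. In PWKxCAST replicates 5 and 3, Myl2 was 10.65 and 10.12, its highest values, and Myl3 was 10.89 and 10.88. In these lungs Pln was 11.40 and 11.11, also its highest values, and Nppa was 12.70 and 12.60. Acta1, the actin of skeletal muscle, stood there at 7.39 and 7.23, near its lung median of 7.15. In the other 7 lungs with high Myl2, which were CASTxWSB replicates 5 and 8, CASTxCAST replicates 2, 4 and 9, PWKxPWK replicate 12 and PWKxWSB replicate 2, Acta1 ranged between 10.46 and 12.40. Of these 7, CASTxWSB replicate 5 also had high Pln, at 10.03, the highest of its cross. High Myl2 thus came with high Acta1 in 7 lungs, and without it in the 2 PWKxCAST lungs.

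Bmp10, a growth factor gene that in the adult mouse heart is known from the right atrium, was at 4.04 in the median lung and above 8 in 8 lungs, a level chosen after the values were seen. Liver expresses Bmp10 as well, at 7.97 ± 0.41 (SD, n = 101). The 8 lungs were PWKxCAST replicates 3 and 5, PWKxWSB replicates 8 and 9, PWKxPWK replicates 7 and 12, and WSBxWSB replicates 7 and 9. Nppa lay between 11.85 and 12.71 in these lungs, and at or below 11.36 in the other 90. So the lungs with the highest Nppa were those with the highest Bmp10. Nppb, the B-type natriuretic peptide gene, was 5.90 to 7.62 in them, with a median over all lungs of 4.20. Actc1 in the same lungs was 12.93 to 13.31, inside or just above the range of the rest but above the lung median of 12.88. In each cross concerned, the highest Actc1 was among these lungs. Tnni3 was at least 11.44 in them, with a median over all lungs of 10.92. Pln was at least 9.15 in them, with a median over all lungs of 8.50. No CAST lung and no lung of the CASTxPWK, CASTxWSB, WSBxCAST or WSBxPWK crosses was among the 8. In all, 14 lungs had Bmp10 above 8 or high Myl2, and 3 had both. The part of these arrays in each result is given below by leaving them out.

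**Figure D2:**
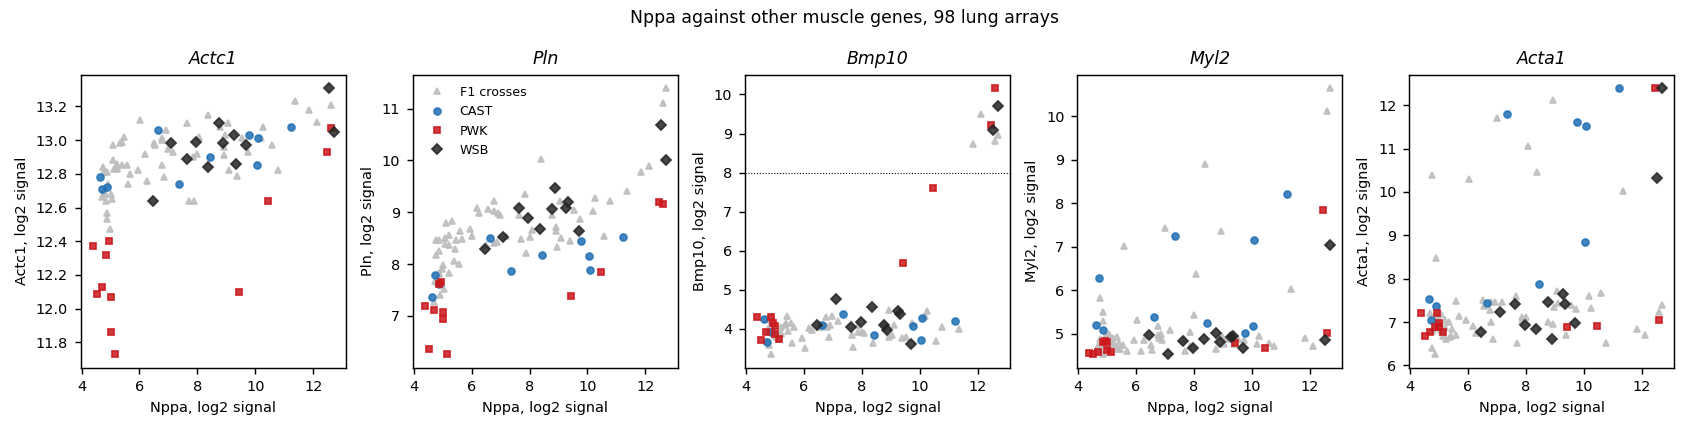
Log2 signals of Actc1, Pln, Bmp10, Myl2 and Acta1 (vertical axes) against Nppa (horizontal axis) in 98 lung arrays, with grey triangles for F1 crosses, blue circles for CAST, red squares for PWK and black diamonds for WSB. The 8 arrays above the dotted line at Bmp10 of 8 lie at Nppa of 11.85 or more, whereas the 9 arrays with high Myl2 have Nppa between 6.99 and 12.70.

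The spread between lungs differed greatly among the genes. After the means of cross and sex were removed, Nppa had a residual SD of 2.34 log2 units, which ranked 1 among the 11292 tested genes. From its lowest to its highest lung it spanned 8.32 log2 units, a 319-fold range. Pln had a residual SD of 0.68 (rank 71), Ryr2 of 0.54 (rank 121), Tnni3 of 0.47 (rank 165), Myl7 of 0.46 (rank 174) and Tnnt2 of 0.44 (rank 189). Myl4 had 0.30 (rank 472) and Actc1 0.20 (rank 2246). Actc1 spanned 1.58 log2 units over all lungs, a 3-fold range. Actc1 and Myl4 also had the highest lung means of the measured genes, at 12.83 and 12.47, where the highest value on any array was 14.55. Whether their high signals narrowed the spread was not tested.

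Levels differed among the crosses for the tested genes, least firmly for Nppa. Fewer muscle cells in the sample and less RNA of these genes per cell cannot be told apart in such tissue RNA. By limma's moderated F-test among the 9 crosses all 8 were called, at adjusted p-values between 5.95e-13 (Actc1) and 0.0254 (Nppa), but so were 93.9% of all tested genes. The call of Nppa was lost with runs of animal numbers as a block (adjusted p = 0.419), with the Acta1 level as a covariate (0.0889) and without WSBxWSB replicate 9 (0.0588). WSBxWSB had the highest mean for Myl7, Myl4, Tnni3, Tnnt2, Ryr2, Pln and Nppa, and PWKxPWK the lowest for Myl7, Myl4, Actc1, Tnnt2, Ryr2, Pln and Sln. CASTxWSB had the highest Actc1 and WSBxCAST the highest Sln, whereas CASTxCAST had the lowest Tnni3 and WSBxPWK the lowest Nppa. Neighbouring crosses in these orders seldom stood apart. Of the 8 steps between neighbours, the number wider than the SD of both crosses was 1 for Actc1 (CASTxPWK over PWKxPWK), 1 for Pln and 0 for the other 7 genes.

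In Myl7, the 3 inbred strains had 10.10, 11.16 and 11.70 in CAST, 8.93, 10.04 and 11.62 in PWK, and 10.80, 11.56 and 12.44 in WSB (lowest, median and highest). The lower part of the PWK range had no counterpart in WSB. CASTxPWK lungs lay at 10.39, 10.85 and 11.39 and PWKxCAST lungs at 10.47, 11.15 and 12.19. The 4 crosses with a WSB parent lay higher, with means of 11.45 ± 0.27 in CASTxWSB (SD, n = 11), 11.51 ± 0.25 in WSBxCAST (n = 12), 11.53 ± 0.34 in PWKxWSB (n = 10) and 11.21 ± 0.27 in WSBxPWK (n = 11). Their medians all lay above those of both crosses between CAST and PWK.

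In Tnni3, CAST had 9.10, 9.90 and 10.64, PWK had 8.90, 10.10 and 11.72, and WSB had 10.74, 11.25 and 12. Every CAST lung was below every WSB lung. All 6 F1 crosses had medians above both CAST and PWK, between 10.50 in CASTxPWK and 11.22 in WSBxCAST. In Actc1, CAST had 12.71, 12.87 and 13.08, PWK had 11.73, 12.23 and 13.07, and WSB had 12.64, 12.98 and 13.31. CAST and WSB overlapped almost completely in Actc1, whereas the PWK median was below the lowest lung of both.

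In Pln, CAST had 7.36, 8.02 and 8.52, PWK had 6.26, 7.29 and 9.19, and WSB had 8.30, 9.07 and 10.69. Pln was above every array of the other tissues in 9 of 10 CAST, 5 of 12 PWK and 12 of 12 WSB lungs. In Nppa, CAST had 4.64, 7.90 and 11.23, PWK had 4.39, 5.01 and 12.60, and WSB had 6.46, 8.83 and 12.71. Nppa passed the highest array of the other tissues in 6 of 10 CAST, 4 of 12 PWK and 11 of 12 WSB lungs. In F1 crosses it did so in 3 of 10 CASTxPWK, 4 of 10 PWKxCAST, 7 of 11 CASTxWSB, 7 of 12 WSBxCAST, 5 of 10 PWKxWSB and 1 of 11 WSBxPWK lungs. The 3 strains thus overlapped in Nppa, whose means were 7.78 ± 2.49 in CAST (SD, n = 10), 6.96 ± 3.27 in PWK (n = 12) and 9.06 ± 1.92 in WSB (n = 12).

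**Figure D3:**
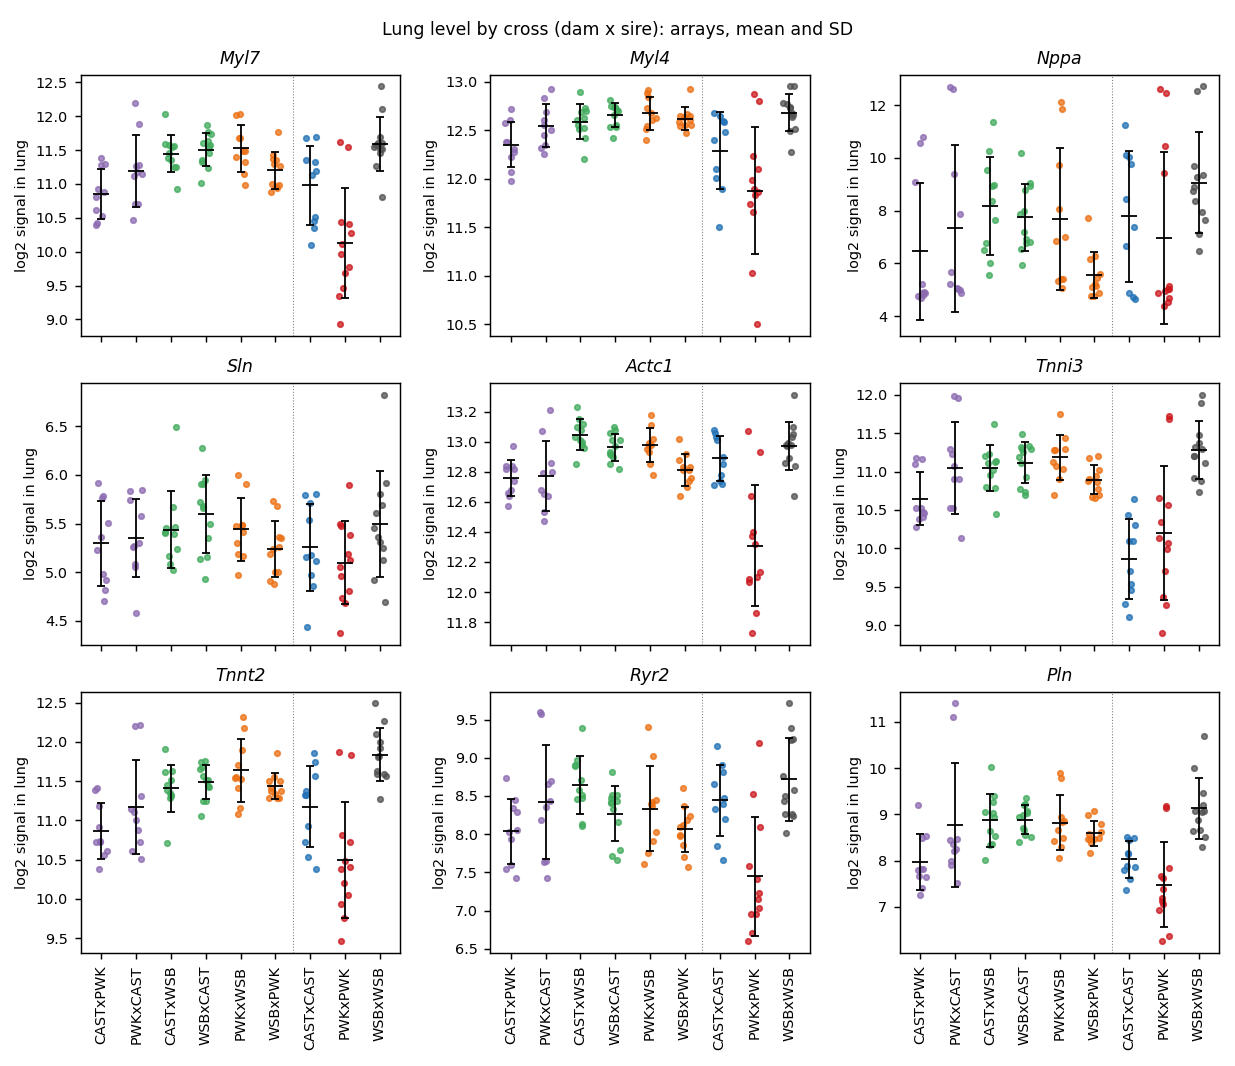
Log2 signal in lung (vertical axes) of the 9 measured genes by cross, dam first (horizontal axes), with points for arrays and black marks for the mean and SD, and the 6 F1 crosses left of the dotted line. PWK lungs are low and widely spread for most genes, Tnni3 is lowest in CAST with a mean of 9.86, and Nppa spans most of its range within single crosses.

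Between CAST and PWK, 5 of 8 tested genes were higher in CAST and none was lower, against 62.7% of all tested genes called and 33.1% called higher and 29.5% called lower. The share called was thus near that of all genes, and its calls went 1 way. With other settings Tnni3 became a call in the opposite direction, at -0.59 with array weights (0.00816), -0.44 with the Nppa level as a covariate (0.00236) and -0.53 with the Acta1 level as a covariate (0.0174). Array weights also ended the call of Myl4, at 0.21 (0.103). The log2 differences (± SE, limma) were 1.0 ± 0.23 for Ryr2 (adjusted p = 9.08e-05), 0.89 ± 0.19 for Myl7 (4.66e-05), 0.70 ± 0.18 for Tnnt2 (0.000647), 0.59 ± 0.08 for Actc1 (3.81e-09) and 0.44 ± 0.13 for Myl4 (0.00187). Pln at 0.54 ± 0.29 (0.092), Nppa at 0.96 ± 0.98 (0.402) and Tnni3 at -0.30 ± 0.20 (0.189) did not pass. Their median was 0.64, against 0.01 over all tested genes. The 8 lungs with Bmp10 above 8 hold the highest Nppa and, among PWK lungs, the highest Pln, and include 2 PWK and no CAST lungs, so leaving them out raises both differences by construction. Without them Pln was at 0.88 (3.96e-05) and Nppa at 2.07 (0.0212), and without the lungs with high Myl2 as well Pln was at 0.79 (0.000963) and Nppa at 1.03 (0.355).

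Between CAST and WSB, 5 of 8 were lower in CAST and none was higher, against 59.9% of all tested genes called and 24.0% called lower, so that the share called was again near the background. The largest of these was Tnni3, at -1.39 ± 0.20 (adjusted p = 3.82e-09, limma), a ratio of 0.382. Pln at -1.09 ± 0.29 (0.0007), Tnnt2 at -0.64 ± 0.19 (0.00202), Myl7 at -0.56 ± 0.19 (0.00962) and Myl4 at -0.36 ± 0.13 (0.0122) were also lower. Actc1 at -0.07 ± 0.08 (0.49), Ryr2 at -0.26 ± 0.23 (0.329) and Nppa at -1.15 ± 0.99 (0.32) did not pass. The call of Myl7 was lost at an adjusted p of 0.0532 when runs of neighbouring animal numbers formed a random block, and at 0.0517 without CASTxCAST replicate 1.

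Between PWK and WSB all 8 tested genes were lower in PWK, against 61.4% of all tested genes called and 26.7% called lower. The differences were -1.63 ± 0.27 for Pln, -1.45 ± 0.18 for Myl7, -1.34 ± 0.18 for Tnnt2, -1.26 ± 0.22 for Ryr2, -1.09 ± 0.19 for Tnni3, -0.80 ± 0.12 for Myl4 and -0.66 ± 0.08 for Actc1 (adjusted p between 1.63e-11 and 4.07e-07, limma). Nppa differed by -2.11 ± 0.93 (adjusted p = 0.0437), a call that 13 of 98 arrays could end when left out singly, with adjusted p-values up to 0.127. With runs as a block its adjusted p was 0.19, and with array weights the difference was -1.27 (0.282). Without the 14 lungs with Bmp10 above 8 or high Myl2 the 7 genes other than Nppa remained lower in PWK, with Pln at -1.72 (2.58e-13) and Actc1 at -0.75 (1.3e-16). Nppa was then at -2.48 (0.0063), a value set in part by the selection, which removes the lungs with the highest Nppa. With the Nppa level of each array as a covariate, the other 7 remained lower, at -0.54 for Actc1 to -1.15 for Pln. Where the strains' sequences differ from a probe, the signal can differ at equal transcript amounts, and this was not analysed here. Sln, fitted without the filter, differed by 0.18 ± 0.17 between CAST and PWK (adjusted p = 0.43), by -0.20 ± 0.18 between CAST and WSB (0.374) and by -0.38 ± 0.17 between PWK and WSB (0.0513).

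Atrial and remaining genes were called in the same directions, and a difference between the sets was not tested. Of the 3 tested atrial genes (Myl7, Myl4 and Nppa) 2, 2 and 3 were called in the comparisons of CAST with PWK, CAST with WSB and PWK with WSB, with medians of 0.89, -0.56 and -1.45. Of the 5 others (Actc1, Tnni3, Tnnt2, Ryr2 and Pln) 3, 3 and 5 were called, with medians of 0.59, -0.64 and -1.26. Over all tested genes 62.7%, 59.9% and 61.4% were called in these comparisons. The counts for CAST against either strain were thus near the background in both sets.

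Within single arrays the genes nevertheless changed unequally. The level of each gene minus that of Tnni3 on the same array was compared between strains by two-sided permutation tests (24 tests, 100000 resamples). After Benjamini-Hochberg adjustment 18 passed. The share that other tested genes minus Tnni3 would give was not determined, so this count stands without a background. By limma 59.9% to 62.7% of all tested genes were called between these strains. Such a difference removes what raises or lowers both genes by the same log2 amount, and its level has no meaning across probes. The genes did not spread equally between lungs, with a residual SD of 0.20 for Actc1, 0.47 for Tnni3 and 2.34 for Nppa. A shared change of unequal size can therefore remain in the difference, and its part in the calls was not tested. Actc1 minus Tnni3 was 3.02 ± 0.38 in CAST (SD, n = 10) and 1.69 ± 0.27 in WSB (n = 12), a change of 1.34 (adjusted p = 2.4e-05). Myl7 minus Tnni3 was 1.12 ± 0.24 in CAST and -0.07 ± 0.18 in PWK, a change of 1.19 (adjusted p = 2.4e-05). The ranges of ± SD did not meet in either case. In CAST, 6 of the 8 differences were higher than in PWK and 6 were higher than in WSB, none being lower. Between PWK and WSB the changes were smaller and went both ways, with 3 higher in PWK (Myl4 by 0.28, Actc1 by 0.42 and Sln by 0.69) and 3 lower (Myl7 by -0.38, Pln by -0.56 and Tnnt2 by -0.26). Nppa minus Tnni3 passed in none of the 3 comparisons (adjusted p between 0.293 and 0.853). The differences all share Tnni3, which itself had its lowest mean in CAST, so the counts against CAST are not 8 separate results and in large part restate the Tnni3 level. No other gene was used as the common term.

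F1 lungs were above the mean of their parental strains for several contractile genes. In the crosses between CAST and PWK, 5 of 8 genes were higher than the mid-parent value and none was lower, against 19.5% of all tested genes called, 10.1% called higher and 9.43% called lower. Tnni3 exceeded it by 0.78 ± 0.14 (adjusted p = 1.58e-05, limma), Pln by 0.59 ± 0.21 (0.0336), Myl7 by 0.43 ± 0.14 (0.0193), Myl4 by 0.34 ± 0.09 (0.00383) and Actc1 by 0.16 ± 0.06 (0.0471). The Tnni3 means were 10.65 ± 0.35 in CASTxPWK and 11.05 ± 0.60 in PWKxCAST (SD, n = 10 each), against 9.86 ± 0.52 in CAST (n = 10) and 10.20 ± 0.88 in PWK (n = 12). In the crosses between PWK and WSB, 4 of 8 genes were higher than the mid-parent value, against 37.2% of all tested genes called and 22.7% called higher. These were Myl7 by 0.53 ± 0.13 (0.00125), Tnnt2 by 0.40 ± 0.13 (0.0102), Myl4 by 0.38 ± 0.09 (0.000456) and Actc1 by 0.27 ± 0.06 (0.000253). In the crosses between CAST and WSB, 1 of 8 was higher, Tnni3 by 0.48 ± 0.14 (0.00499), against 30.5% called and 14.9% called higher. Nppa was below the mid-parent value in each pair, by -0.67 ± 0.71, -0.55 ± 0.68 and -1.27 ± 0.68, without passing the test (adjusted p of 0.553, 0.58 and 0.135).

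These counts depended on the treatment of the arrays. With these runs of animal numbers taken as a block they were 1 of 8 for CAST and PWK (Tnni3), 0 for CAST and WSB and 3 for PWK and WSB. Leaving out single arrays took the count for CAST and PWK to between 2 and 5. It was 2 without CASTxCAST replicate 1 and 3 without CASTxPWK replicate 3, PWKxCAST replicates 3 or 5, or PWKxPWK replicates 2 or 3. The call of Actc1 for CAST and PWK could be ended by 24 arrays left out singly, with adjusted p-values up to 0.0994 (limma). It was also lost without the filter (0.0625) and with quantile normalisation (0.0881). Without the lungs with high Myl2 the count for CAST and PWK was 3, with Pln at 0.40 (adjusted p = 0.154).

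**Figure D4:**
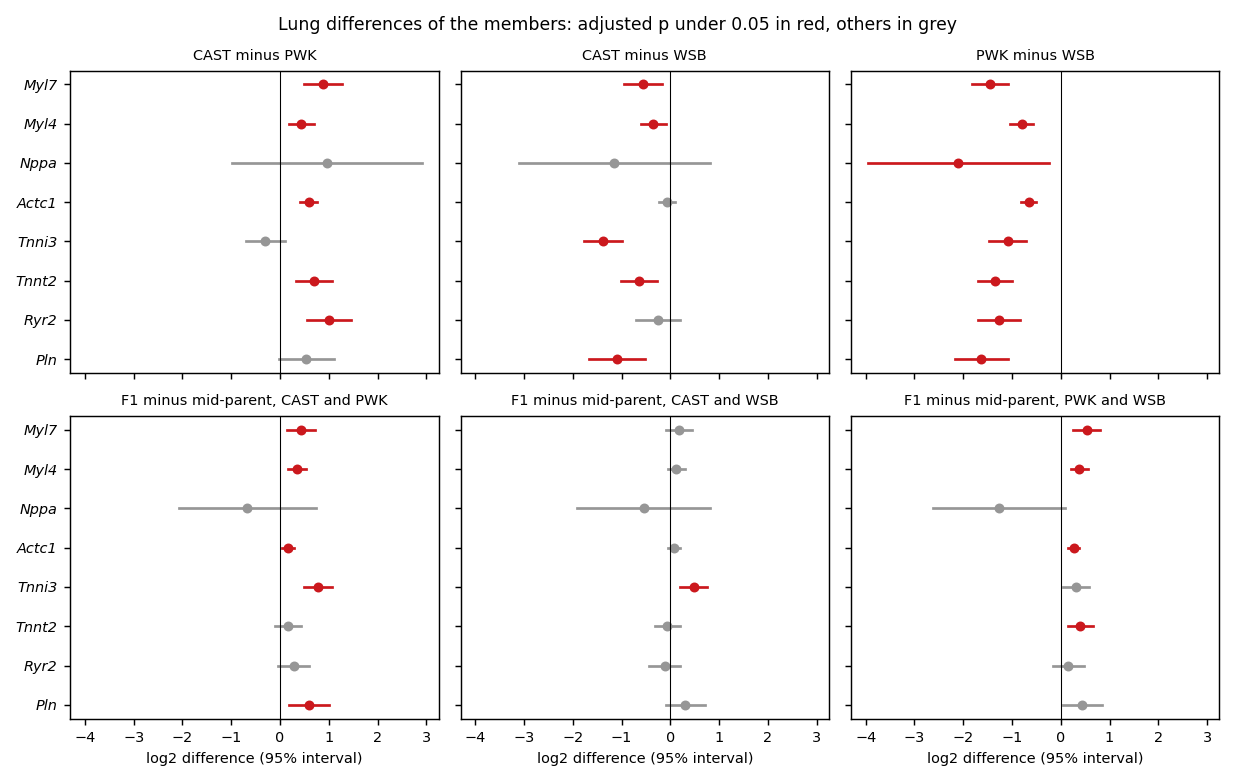
Log2 differences in lung (points, horizontal axis) with 95% intervals for the 8 tested genes, between the inbred strains in the upper row and between F1 lungs and the mean of both parental strains in the lower row, with adjusted p under 0.05 in red and others in grey. All 8 genes are lower in PWK than in WSB, Tnni3 differs most between CAST and WSB, and the interval of Nppa is the widest in each panel.

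The direction of the cross and the sex of the animal gave no call. Between CASTxPWK and PWKxCAST 0 of 8 genes passed, against 0.611% of all tested genes. The smallest adjusted p belonged to Pln, which was lower in CASTxPWK by -0.85 ± 0.30 (0.23, limma). PWKxCAST holds the 2 lungs with the highest Pln. With array weights this difference was -1.18 (adjusted p = 0.00961). Between CASTxWSB and WSBxCAST 0 of 8 passed, against 38.8%, and the difference in Myl7 was -0.07 ± 0.19. Between PWKxWSB and WSBxPWK 0 of 8 passed, against 8.40%, with Nppa at 2.35 ± 1.0 (adjusted p = 0.115). Both PWKxWSB lungs with Bmp10 above 8 are in that comparison, and WSBxPWK has none. Tnni3 was 10.91 ± 0.54 in females (SD, n = 50) and 10.72 ± 0.73 in males (SD, n = 48), and 0 of 8 genes differed between the sexes, against 3.52% of all tested genes. No gene had a sex difference that varied among crosses, against 23.3% of all tested genes.

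Over all lungs the deviations of the genes were positively correlated, while in single crosses 11 of 36 pairs had an r below 0, 8 of them with Sln and 3 with Nppa and another gene. The lowest was -0.37, for Actc1 with Nppa in WSBxPWK. Deviations from the mean of each cross and sex were correlated over 98 arrays for 36 pairs of genes. All 36 passed after adjustment, by Pearson's r and by Spearman's rho. The share of other gene pairs that would pass was not determined, so this count stands without a background. Pearson's r ranged between 0.43 and 0.95 with a median of 0.78, and Spearman's rho between 0.35 and 0.93. For 33 pairs the permutation p was 1e-05, the smallest that 100000 resamples can give. Tnni3 and Tnnt2 had r = 0.95 (rho = 0.93) and Tnni3 and Myl7 r = 0.93 (rho = 0.91). Nppa followed Tnni3 at r = 0.76 (rho = 0.71) and Pln at r = 0.78 (rho = 0.73). Pairs with Sln were the lowest, at 0.43 to 0.49. Leaving out the 2 arrays farthest from the median gave r between 0.39 and 0.93. Within runs of neighbouring animal numbers, which covered 93 arrays, r was between 0.35 and 0.96. Without the 14 lungs with Bmp10 above 8 or high Myl2, 35 of 36 pairs passed over 84 arrays, with r between 0.21 and 0.91 and a median of 0.64. Pln with Sln was the pair that did not pass (r = 0.21, adjusted p = 0.0526).

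The 12 further genes whose deviations were most like the mean of the 9, by Pearson's r over 98 lungs, were Srl (0.92), Tnnc1 (0.92), Myom2 (0.92), Myoz2 (0.92), Kcnj3 (0.91), Corin (0.91), Mybphl (0.91), Mybpc3 (0.91), Txlnb (0.90), Casq2 (0.90), Fgf12 (0.89) and Csrp3 (0.89). The deviations were not scaled before averaging, so Nppa, with a residual SD of 2.34 against 0.20 for Actc1, weighs most in this mean. Srl, Myom2, Myoz2, Kcnj3, Corin, Mybpc3 and Txlnb were also among the 12 genes most like Nppa alone. Tnnc1 is the cardiac troponin subunit that binds calcium, and Casq2 is the calcium store protein of cardiac sarcoplasmic reticulum. Corin is the protease that activates atrial natriuretic peptide, and Kcnj3 encodes a potassium channel subunit of atrial cells. For Nppa alone, a comparison made after the values were seen, Corin was first at 0.83, followed by Myoz2 and Kcnj3 at 0.80 each.

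Marker genes of muscle and of other tissues moved with these genes to different degrees. For Tnni3, r was 0.73 with Myl3, 0.70 with Ckm, the creatine kinase of striated muscle, 0.41 with Ucp1, the brown fat uncoupling protein, 0.39 with Myl2, 0.35 with Acta1, 0.35 with the smooth muscle actin Acta2 and 0.24 with the smooth muscle myosin Myh11. It was -0.29 with the T cell gene Cd3e. These 8 of 11 passed after adjustment (permutation, adjusted p between 5.5e-05 and 0.0227), and Myh11 was lost within runs of animal numbers (r = 0.19, adjusted p = 0.0937). Krt13 of squamous epithelium (r = 0.16), Msln of the mesothelium (0.03) and Sftpc (0.01) did not pass. For Nppa, r was 0.65 with Ckm, 0.63 with Myl3, 0.49 with Ucp1, 0.42 with Myl2, 0.35 with Acta1 and 0.23 with Myh11, and these 6 of 11 passed (adjusted p between 3.67e-05 and 0.0451). Within runs Nppa with Myh11 was lost (r = 0.18, adjusted p = 0.112) and Nppa with Cd3e passed (r = -0.24, adjusted p = 0.0344). The part of other tissue in the dissected sample in the spread of the 9 genes was not tested.

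**Figure D5:**
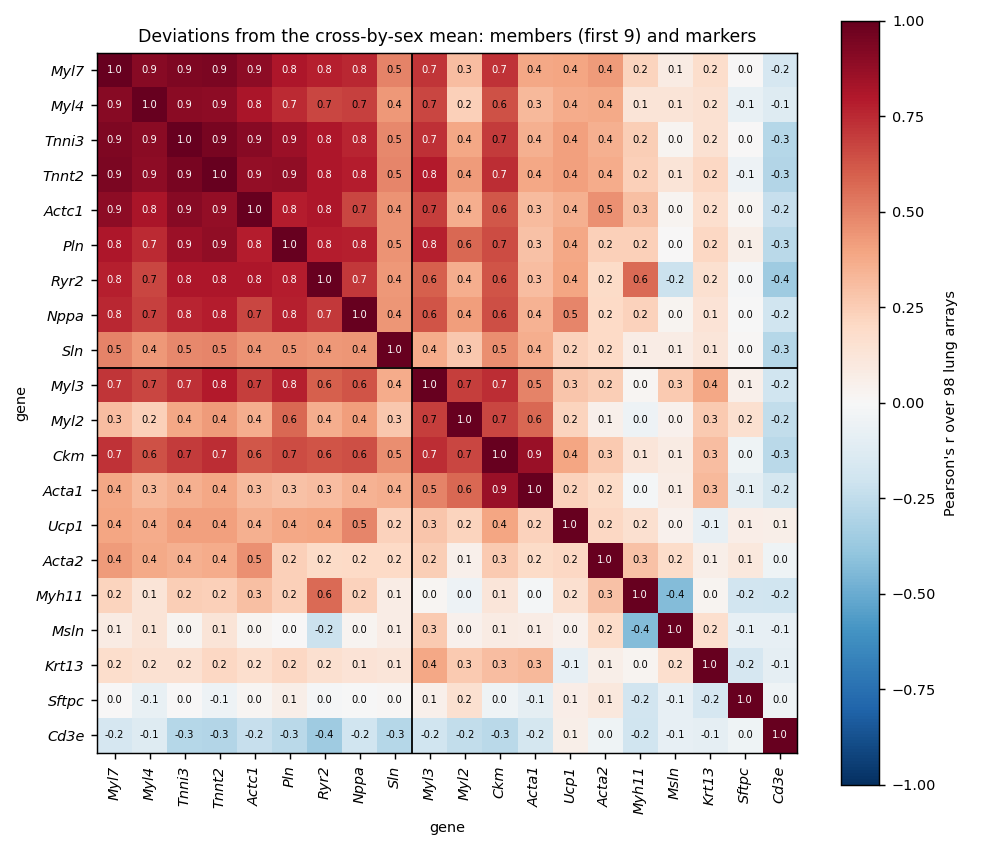
Pearson's r (colour and numbers) between deviations from the cross-by-sex mean over 98 lung arrays, for the 9 measured cardiac genes (first rows and columns, up to the black lines) and 11 marker genes. The 8 cardiac genes other than Sln form a block with r of at least 0.67. The light chain gene Myl3 and the striated muscle gene Ckm are next to it, and Sftpc is between -0.07 and 0.06 with the cardiac genes.

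Further cardiac genes, listed by function and without the 9 above, were counted in the same comparisons, with p-values adjusted over all tested genes. Of 17 other sarcomere genes tested, 15 were higher and 1 lower in CAST than in PWK (median 1.02), 0 were higher and 1 lower in CAST than in WSB (median -0.06), and 0 were higher and 15 lower in PWK than in WSB (median -0.97). Over all tested genes the medians were 0.01, 0.05 and 0.04, and the shares called higher and lower were 33.1% and 29.5%, 35.9% and 24.0%, and 34.7% and 26.7% in these 3 comparisons. The counts of the lists that follow stand against the same shares. Myoz2, a protein of the Z disc, was 1.56 ± 0.25 higher in CAST than in PWK and differed by -1.89 ± 0.23 between PWK and WSB, and Nebl, another Z disc protein, by 0.38 ± 0.05 and -0.45 ± 0.04. Myh7 was the exception in the CAST comparisons, at -0.71 ± 0.11 against PWK and -1.01 ± 0.11 against WSB.

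Of 10 genes of muscle energy supply, 10 were higher in CAST than in PWK (median 1.33) and 9 were lower in PWK than in WSB (median -1.17), whereas between CAST and WSB 2 were higher and 1 was lower in CAST. Fabp3, the fatty acid binding protein of heart and muscle, differed by 2.03 ± 0.25, -0.62 ± 0.25 and -2.65 ± 0.24 in CAST minus PWK, CAST minus WSB and PWK minus WSB. Mb, myoglobin, differed by 2.30 ± 0.32, 0.56 ± 0.33 and -1.74 ± 0.31, of which the difference between CAST and WSB did not pass.

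Of 14 genes of calcium handling and rhythm, 8 were higher and 4 lower in CAST than in PWK, 3 higher and 4 lower in CAST than in WSB, and 4 higher and 8 lower in PWK than in WSB. Jph2, which holds the membranes at calcium release sites together, differed by -0.96 ± 0.09 between PWK and WSB, while the pacemaker channel gene Hcn4 differed by 0.86 ± 0.10 and the connexin gene Gja1, listed also as ventricular, by 0.36 ± 0.05. Of 8 cardiac transcription factors, 5 were higher and 1 lower in CAST than in PWK, 4 higher and 1 lower in CAST than in WSB, and 1 higher and 5 lower in PWK than in WSB. Prox1, which has the smallest p among crosses in this list, went the other way between PWK and WSB, with differences of 0.29 ± 0.09, 0.74 ± 0.09 and 0.45 ± 0.09 in CAST minus PWK, CAST minus WSB and PWK minus WSB. In the same order Gata6 differed by 0.42 ± 0.05, 0.24 ± 0.06 and -0.18 ± 0.05. For the transcription factors the share called between CAST and each other strain was near the background of 62.7% and 59.9%. Of 9 further atrial genes the counts were 6 and 1, 4 and 3, and 0 and 6, and of 7 ventricular genes 3 and 3, 1 and 2, and 2 and 5 (higher and lower). How much of the lung signal of these atrial and ventricular genes came from heart muscle was not tested. Clec3b, listed with the atrial genes and also made in lung stroma, was 1.33 ± 0.10 higher in CAST than in PWK. Some genes stand in more than 1 list.

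Markers of other cells were counted against the background of the tested genes called in all, which was 62.7% for CAST against PWK, 59.9% for CAST against WSB and 61.4% for PWK against WSB. Of 6 skeletal muscle genes tested, 5 were higher in CAST than in PWK (median 1.62), 2 were higher in CAST than in WSB and 1 was lower in PWK than in WSB. Tnnt3, the troponin T of fast skeletal muscle, was 2.31 ± 0.50 higher in CAST than in PWK. The mean over the 16 skeletal muscle genes on the array ranged between 5.18 and 8.77 in CAST lungs, 5.09 and 8.70 in PWK lungs and 5.27 and 9.39 in WSB lungs, with medians of 5.76, 5.20 and 5.52. With Acta1 as a covariate 7 of 8 cardiac genes were lower in PWK than WSB lungs, Nppa being the gene that did not pass (adjusted p = 0.0655). Between CAST and PWK, where the skeletal genes differed more often, the same covariate gave -0.53 for Tnni3 (0.0174), 0.47 for Tnnt2 (0.0215), 0.26 for Pln (0.444) and -0.18 for Nppa (0.885), against -0.30, 0.70, 0.54 and 0.96 without it. Of 10 smooth muscle genes, 8 were higher in CAST than in PWK, 9 were higher in CAST than in WSB, and 1 was higher and 5 lower in PWK than in WSB. Actg2, an actin of smooth muscle, differed by 0.86 ± 0.10, 0.23 ± 0.10 and -0.63 ± 0.09 in CAST minus PWK, CAST minus WSB and PWK minus WSB. The mean of the list lay between 9.94 and 10.36 in CAST, 9.38 and 9.78 in PWK and 9.61 and 9.96 in WSB.

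Of 4 T cell genes, 0 differed between CAST and PWK, and 3 were lower in CAST and 3 in PWK than in WSB, with means of the 7 genes on the array at 5.71 to 6.12 in CAST, 5.56 to 6.20 in PWK and 6.33 to 6.70 in WSB. Cd8b1, a chain of the T cell coreceptor CD8, differed by -1.63 ± 0.15 between CAST and WSB and by -1.66 ± 0.14 between PWK and WSB. Of the brown fat list 3 genes were tested, Plin1, Adipoq and Cox8b, but not Ucp1. Cox8b stands also among the genes of muscle energy supply, so the counts are not particular to brown fat. Of the 3, 2 were higher in CAST than in PWK, 3 in CAST than in WSB and 2 in PWK than in WSB. The means of the 7 genes on the array lay between 5.98 and 8.19 in CAST, 5.82 and 8.33 in PWK and 5.36 and 6.91 in WSB. Adipoq, the adiponectin gene, did not pass between CAST and PWK, at -0.49 ± 0.28 (adjusted p = 0.128, limma). Plin1, which coats fat droplets, differed by 0.69 ± 0.30, 1.65 ± 0.30 and 0.97 ± 0.28 in CAST minus PWK, CAST minus WSB and PWK minus WSB. None of the 6 squamous genes of the oesophagus passed the filter, and their mean lay between 4.75 and 9.95 in CAST, 5.04 and 5.76 in PWK and 4.49 and 4.90 in WSB. Of 6 mesothelial genes the counts of higher and lower were 4 and 2, 2 and 2, and 1 and 4 in the 3 comparisons, and of 8 alveolar genes 1 and 5, 0 and 4, and 4 and 2. Upk1b, a uroplakin listed with the mesothelium, differed by -0.70 ± 0.05, -0.12 ± 0.05 and 0.57 ± 0.05, and Napsa, a protease of alveolar type II cells, by -0.47 ± 0.06, -0.99 ± 0.06 and -0.52 ± 0.05. The part of these markers in the strain differences of the cardiac genes was not tested beyond the covariate fits.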

How the data were processed

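The authors deposited 1 table of log2 signals from Affymetrix Mouse Gene 1.1 ST arrays, with a row for each transcript cluster. Per the submitters' processing notes they were made with RMA and Affymetrix Expression Console, whose versions and whose treatment of the 4 tissues together or apart are not given in the sources used here. The table held 35556 clusters on 386 arrays with 0 missing values. Lung array medians lay between 5.95 and 6.36, and the correlation of any 2 lung arrays between 0.9439 and 0.9950. The number of arrays limits the precision.

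Cross, sex and animal came from the labels. Replicates are separate animals per the labels, and replicate numbers only name arrays. Of 111 animals 67 gave all 4 tissues. Clusters with 1 symbol were used (21218, against 1881 with several and 12457 with none), the highest mean per symbol. A model of 18 cross-by-sex means was fitted with limma 3.58.1 in R 4.3.3 (eBayes with trend), with p-values adjusted by Benjamini-Hochberg over 11292 genes and called under 0.05. The code was tested on simulated data. Permutations and correlations used numpy 2.4.6 and scipy 1.17.1. The members, lists and tests were chosen with earlier results of these data known, and Myh6 had no cluster of its own, so 36 pairs and 24 within-array tests were run. Named were all members, the 12 genes most like them, from each list with tested genes 1 to 3 of the 3 with the smallest F-test p among crosses, and fixed markers; others (such as Bmp10, Nppb and Tbx5) were chosen after their values were seen. Runs are animal numbers at most 3 apart within a cross, 26 in lung, which the labels do not call litters (consensus correlation 0.211).

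Alternatives were no filter or the 60th percentile, an additive model, array weights, the run block, quantile normalisation, another cluster per gene, leaving out each array, sexes apart and, for tissues, the animal as a block and complete animals. Another cluster per gene is no check of the measured cardiac genes, whose values it leaves unchanged because each has a single cluster. Chosen after seeing the data were covariates, the correlations of Nppa with markers, and leaving out 2 kidney arrays or lungs with high Bmp10 or Myl2.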

Additional observations from a re-analysis of the deposited data

Results flagged for a closer look

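Among groups of 4 to 10 arrays, 6 of 117 pairs of a gene and a group held an array apart from its group by Dixon's test at the 95% level, which is 5.1%, where chance gives about 5%. None of the 6 was in lung, where 5 of the 9 crosses have more than 10 arrays and were not examined. Sln was 4.70 in CASTxCAST brain replicate 3, with the next array at 4.18. Ryr2 was 10.45 in CASTxPWK brain replicate 4, with the next at 10.09. Pln was 5.86 in CASTxPWK liver replicate 7, with the next at 5.28. Actc1 was 6.12 in CASTxWSB brain replicate 2, with the next at 5.83. Tnni3 was 5.36 in PWKxCAST brain replicate 10, below the next at 5.69. Nppa was 6.14 in PWKxPWK liver replicate 1, with the next at 5.29. Each of these values except that of Ryr2 in brain is below the lung median of the gene.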

How the results depend on the processing

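With 10 to 12 lungs per cross, and signals of different probes not comparable, the strain counts moved little: over single arrays left out they were 5 to 6 for CAST and PWK, 4 to 5 for CAST and WSB and 7 to 8 for PWK and WSB, with 7 to 8 among crosses and 0 for sex. The animal as a replicate block left 8 genes higher in lung. Array weights gave 1 call between CASTxPWK and PWKxCAST and 2 for sex by cross. For F1 against mid-parent, the run block gave 1 (CAST and PWK) and 0 (CAST and WSB) calls and leaving out single arrays 2 to 5 (CAST and PWK), 1 to 1 and 4 to 6. Among alternatives chosen after seeing the data, the Nppa covariate gave 4 (CAST and WSB) and 7 (PWK and WSB), leaving out lungs with Bmp10 above 8 gave 2 (CAST and WSB), those with high Myl2 3 (CAST and PWK), and both sets 3 (CAST and WSB). The causes were not tested. Weights also ended the call of Myl4 between CAST and PWK (0.21, adjusted p = 0.103) and made one of Tnni3 (-0.59, 0.00816). The call of Nppa among crosses was lost with the run block (0.419), the Acta1 covariate (0.0889) and without WSBxWSB replicate 9 (0.0588). In the cross where it was lowest, r was below 0 for 11 pairs: Tnni3 with Nppa -0.14, Actc1 with Nppa -0.37, Ryr2 with Nppa -0.04, and Sln with Tnni3 -0.14, Myl4 -0.17, Myl7 -0.21, Pln -0.13, Actc1 -0.33, Tnnt2 -0.21, Ryr2 -0.15 and Nppa -0.29. Within-array differences gave 17 calls in females and 14 in males.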
